A study of Mus musculus with 12 samples.

Results

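Acetylcholine is made from choline and acetyl-CoA by choline acetyltransferase, packed into vesicles by the vesicular acetylcholine transporter, and split by acetylcholinesterase, after which choline is taken back up by a high-affinity transporter. Neurons run all of these steps, while tuft cells, the rare chemosensory cells of gut and airway epithelium, are a known non-neuronal source of the transmitter. The signal is read by muscarinic receptors, which couple to G proteins, and by nicotinic receptors, which are ion channels. The 7 genes described here are Chat (the synthesis enzyme), Slc18a3 (the vesicular transporter), Slc5a7 (the high-affinity choline transporter), Ache (the esterase), Colq (the collagen-like tail that anchors the esterase outside the cell), and Chrm3 and Chrm1 (muscarinic receptors that couple to Gq). They were taken by symbol from the 43432 genes of the deposited count table, and all 7 were found there.

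RNA was measured in 12 libraries of EpCAM+ epithelial cells from Flare25 mice, in which a red fluorescent protein marks cells that express IL-25, a cytokine made in gut epithelium mainly by tuft cells. The 4 groups of 3 libraries were gallbladder IL-25+ cells (GB-pos), gallbladder IL-25- cells (GB-neg), proximal small intestine IL-25+ cells (SI-pos) and proximal small intestine IL-25- cells (SI-neg). Every group came from the reporter strain and from an EDTA and DTT preparation sorted for single DAPI- cells. The labels of the 6 gallbladder libraries also name a dye-coupled house dust mite preparation, HDM AF647, given 1 day before collection, while the protocol text of all 12 says homeostasis; in each comparison of tissues, tissue and that label cannot be told apart. Nothing says that the 3 libraries of a group are from different mice, so the spread behind each p-value may be technical. The sort gate reads the reporter and names no cell type.

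Values below are raw counts, or CPM, which are counts scaled by TMM library size. Changes are log2 fold changes ± SE with adjusted p-values from edgeR's quasi-likelihood test (Benjamini-Hochberg over 16636 genes, 3 libraries a group), and a gene is called at an adjusted p under 0.05. Totals ran from 23703449 counts in GB-pos 2 to 64736650 in GB-neg 1, so that 3 counts, the limit that a count of 0 allows, equal 0.0421 to 0.122 CPM in one library. All 12 tuft markers, such as Trpm5, Pou2f3 and Dclk1, had counts in each group, and summed to 23900 to 25210 CPM in GB-pos, 40.3 to 194 in GB-neg, 33310 to 40810 in SI-pos and 88.4 to 265 in SI-neg. GB-neg 1 stood apart in its group: 7 enterocyte markers summed to 452 CPM there and to 9.72 and 10.9 CPM in GB-neg 2 and 3. Enteroendocrine markers summed to 327 CPM in GB-neg 1, against 3.66 and 3.41 in the other 2 libraries. All comparisons were therefore also run without it, alone and together with SI-neg 3. SI-neg 3 had the highest sum of biliary markers in its group (1273 CPM, against 1103 and 1024), a small gap beside those of GB-neg 1. SI-neg 2 had the highest sum of Paneth markers in its group (5747 CPM, against 931 and 1269). It also had the highest sums of enterocyte markers (14080 CPM, against 7086 and 8433) and enteroendocrine markers (11400 CPM, against 5274 and 6092). SI-neg 2 was left out only alone. Mitochondrial genes took 7.13 to 8.83% of counts in GB-pos and 11.2 to 25% in GB-neg, and 12.1 to 17.2% in SI-pos and 26.6 to 34.9% in SI-neg; the part of this in the results was not tested. In bulk RNA, fewer cells of a type and less RNA per cell cannot be told apart.

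Chat and Slc18a3 share one locus yet differed in the groups where they were read, so their promoters are shown here, beside that of Ache, which was lower in IL-25+ cells of both tissues. Each run is the RefSeq sequence from 250 bases before to 50 bases after the annotated start (GRCm38.p6), printed 5′ to 3′ on the gene's own strand. They lie at chr14:32465860-32466159 (minus strand) for Chat, chr14:32464801-32465100 (minus) for Slc18a3 and chr5:137288004-137288303 (plus) for Ache. Capitals mark 4 motifs. The E-box was searched as CAGCTG and as CACGTG. The CCAAT box was searched as CCAAT, which reads ATTGG on the other strand. The GC box was searched as GGGCGG, which reads CCGCCC on the other strand.
Chat: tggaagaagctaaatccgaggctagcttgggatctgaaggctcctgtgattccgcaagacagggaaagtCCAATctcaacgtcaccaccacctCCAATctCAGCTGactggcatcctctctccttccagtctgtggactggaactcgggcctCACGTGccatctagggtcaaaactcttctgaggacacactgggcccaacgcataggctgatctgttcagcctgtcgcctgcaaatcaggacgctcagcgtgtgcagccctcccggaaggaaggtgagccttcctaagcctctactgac
Slc18a3: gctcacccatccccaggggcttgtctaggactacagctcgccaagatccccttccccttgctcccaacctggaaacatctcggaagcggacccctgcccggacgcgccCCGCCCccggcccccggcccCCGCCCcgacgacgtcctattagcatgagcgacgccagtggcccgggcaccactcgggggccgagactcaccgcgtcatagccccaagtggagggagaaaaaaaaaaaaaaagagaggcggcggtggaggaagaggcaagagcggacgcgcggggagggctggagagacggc
Ache: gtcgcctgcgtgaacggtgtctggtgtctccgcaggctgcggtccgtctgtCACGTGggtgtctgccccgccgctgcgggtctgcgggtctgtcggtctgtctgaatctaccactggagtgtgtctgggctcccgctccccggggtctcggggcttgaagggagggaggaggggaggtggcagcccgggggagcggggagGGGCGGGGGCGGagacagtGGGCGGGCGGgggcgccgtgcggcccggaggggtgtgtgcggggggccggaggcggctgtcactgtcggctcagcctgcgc
The Chat window held a CAGCTG E-box at -150, a CACGTG E-box at -98 and CCAAT at -181 and -157. The Slc18a3 window held GC boxes at -142 and -122. The Ache window held a CACGTG E-box at -199 and GC boxes at -50, -44, -31 and -27, of which the last 2 overlap. Of 32851 promoters of the same length, 16.3% held CAGCTG, 7.15% CACGTG, 37.4% CCAAT and 35.7% a GC box. These and the shares below count matches on either strand. TATAAA, in 13.6% of promoters, was absent from these 3 windows and present at -187 in that of Slc5a7. ATGCAAA, the first letters of the octamer motif, is in 4.63% of promoters and in none of the 5 windows examined (Chat, Slc18a3, Slc5a7, Ache and Chrm3). Other parts of the octamer were not searched. The Chat window printed above holds tgcaaat, preceded by c, which that search does not match. How many promoters hold those letters was not counted. A match is a description of letters and not of a bound site.

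Of the synthesis genes, Chat (ENSMUSG00000021919, chromosome 14, 32408203 to 32465989, minus strand, GRCm38) was the highest of the 7 per kilobase of exon in both IL-25+ groups, and not in the IL-25- groups. It had 8440, 6610 and 9239 counts in GB-pos 1 to 3, against 88, 4 and 2 in GB-neg 1 to 3. In the small intestine it had 9300, 9755 and 10224 counts in SI-pos, against 21, 25 and 8 in SI-neg. Every IL-25+ library was far above every IL-25- library of its tissue. In CPM this is 246 ± 2.02 in GB-pos against 0.473 ± 0.661 in GB-neg, and 386 ± 32.2 in SI-pos against 0.554 ± 0.321 in SI-neg (SD, n = 3). The increase was 8.83 ± 0.92 in gallbladder (adjusted p = 5.8e-05) and 9.46 ± 0.95 in small intestine (adjusted p = 4.56e-05), and both were called under each of 21 alternative settings, with an estimate of 11.3 in gallbladder when GB-neg 1 was left out.

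The order of Chat levels was SI-pos, GB-pos, then the 2 IL-25- groups. GB-pos libraries lay at 245, 245 and 249 CPM and SI-pos libraries at 351, 391 and 414 CPM, so the IL-25+ groups did not overlap. Their difference, -0.65 ± 0.64, was not called (adjusted p = 0.513), but it was called by limma-voom (adjusted p = 0.00613), in a fit of these 2 groups alone (0.0198) and without GB-neg 1 and SI-neg 3 (0.0288). GB-neg and SI-neg libraries overlapped, and their difference was -0.02 ± 0.83 (adjusted p = 0.997). Without GB-neg 1 it was -2.45 (adjusted p = 0.00753). GB-neg 1 also had the highest tuft marker sum of its group, 194 CPM against 75.6 and 40.3; the part of these cells in its Chat counts was not tested.

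**Figure D1:**
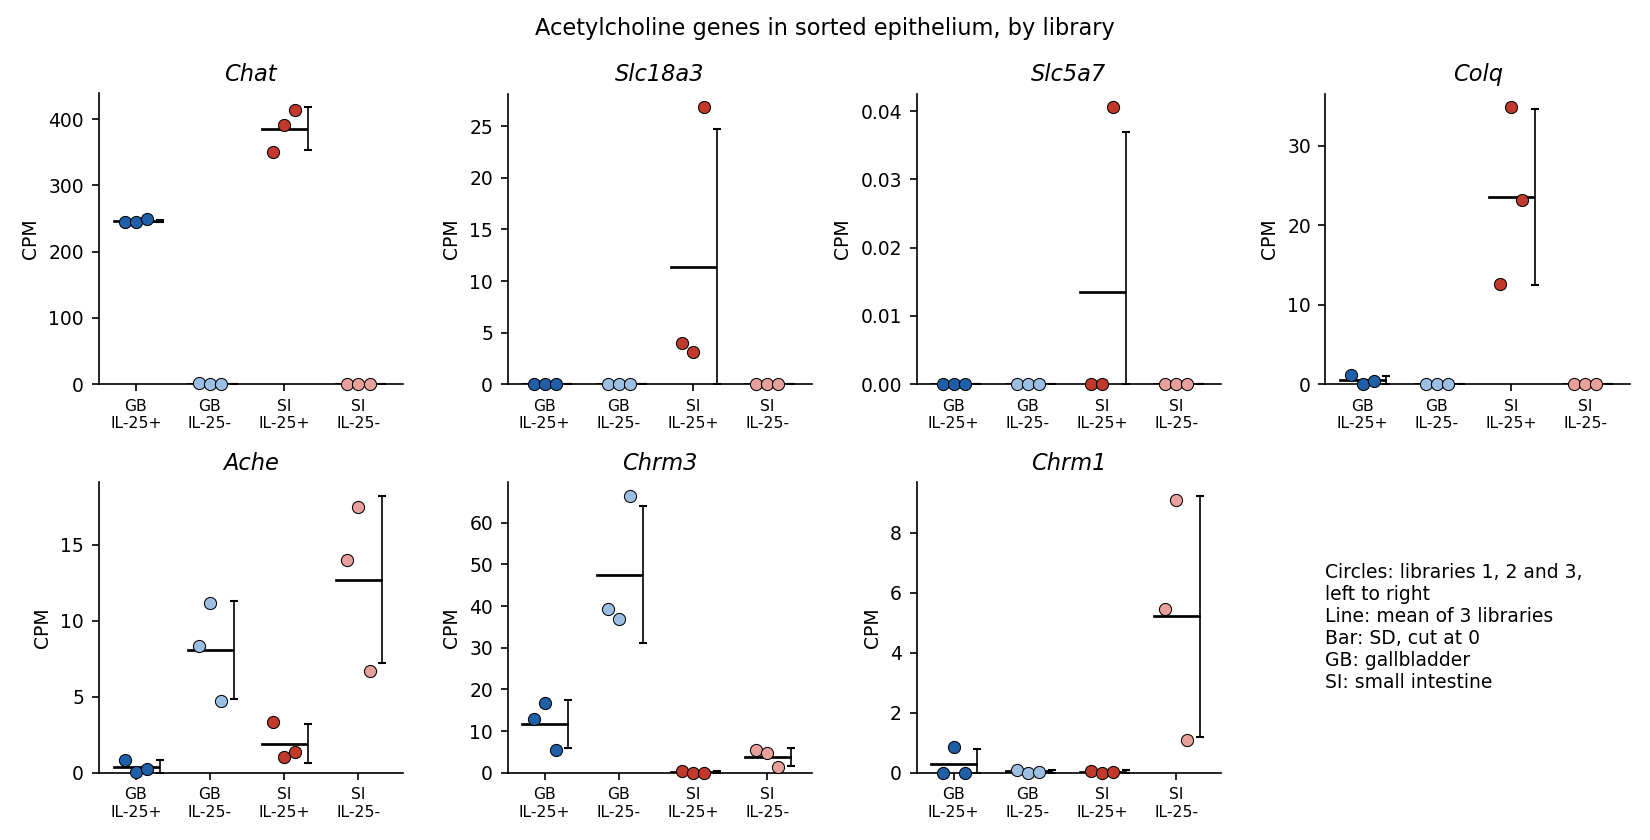
Level of each of the 7 genes in CPM (y axis, own scale in each panel) by group (x axis), with circles for libraries 1 to 3, lines for means and bars for SD cut at 0. Chat lies at 245 to 249 CPM in GB-pos and 351 to 414 CPM in SI-pos; Slc18a3 and Colq are highest in SI-pos, Chrm3 in GB-neg, Ache and Chrm1 in SI-neg.

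Slc18a3 (ENSMUSG00000100241, chromosome 14, 32462438 to 32464850, minus strand) has 1 exon, lies within the span of Chat and shares no exon base with it; its RefSeq start is 1059 bases downstream of that of Chat. It was read almost only in SI-pos. It had 0 counts in each GB-pos library, 3, 0 and 0 in GB-neg, 107, 77 and 662 in SI-pos, and 1, 0 and 0 in SI-neg. SI-pos 3 held most of the counts of its group, at 26.8 CPM against 4.04 and 3.09 in SI-pos 1 and 2, and all 3 lay above every other library. Slc18a3 passed the filter on low counts through SI-pos, which fixed the direction of its changes against that group. Between the small intestine gates the ratio was 1146 (95% counting interval 205 to 45304; adjusted p = 0.00161), and 369 without SI-pos 3. No fold is given for gallbladder, where both groups were at or under 3 counts. GB-pos was at least 365-fold lower than SI-pos (adjusted p = 0.0014), with 3 counts over the group as the floor, and at least 118-fold lower without SI-pos 3.

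The nested genes can be set against each other within a library. Slc18a3 took 1.14% of the reads on both genes in SI-pos 1 (exact 95% binomial interval 0.933 to 1.37), 0.783% in SI-pos 2 (0.619 to 0.978) and 6.08% in SI-pos 3 (5.64 to 6.55). In GB-pos it took 0 of 24289 reads over the 3 libraries, which allows a share of up to 0.0123%. The gallbladder cells thus had Chat reads at 246 CPM with no Slc18a3 read at this depth. The share in SI-pos 3 lay above the intervals of the other 2 libraries, while Chat was 414 CPM in SI-pos 3 and 351 and 391 CPM in SI-pos 1 and 2. SI-pos 3 also held 28 counts of Gm2990, a gene antisense to the start of Chat whose span covers the Chat window printed above, against 0 and 1 in SI-pos 1 and 2 and 0 elsewhere. The library kit does not mark strand, and Gm2990 shares no exon base with Chat or Slc18a3; the part of antisense reads in the counts was not tested. The 7 T cell markers summed to 19 CPM in SI-pos 3, against 4.6 and 4.57 in SI-pos 1 and 2, and to 1.22, 16.9 and 4.22 CPM in SI-neg 1 to 3. The part of such cells in the Slc18a3 counts was not tested.

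**Figure D2:**
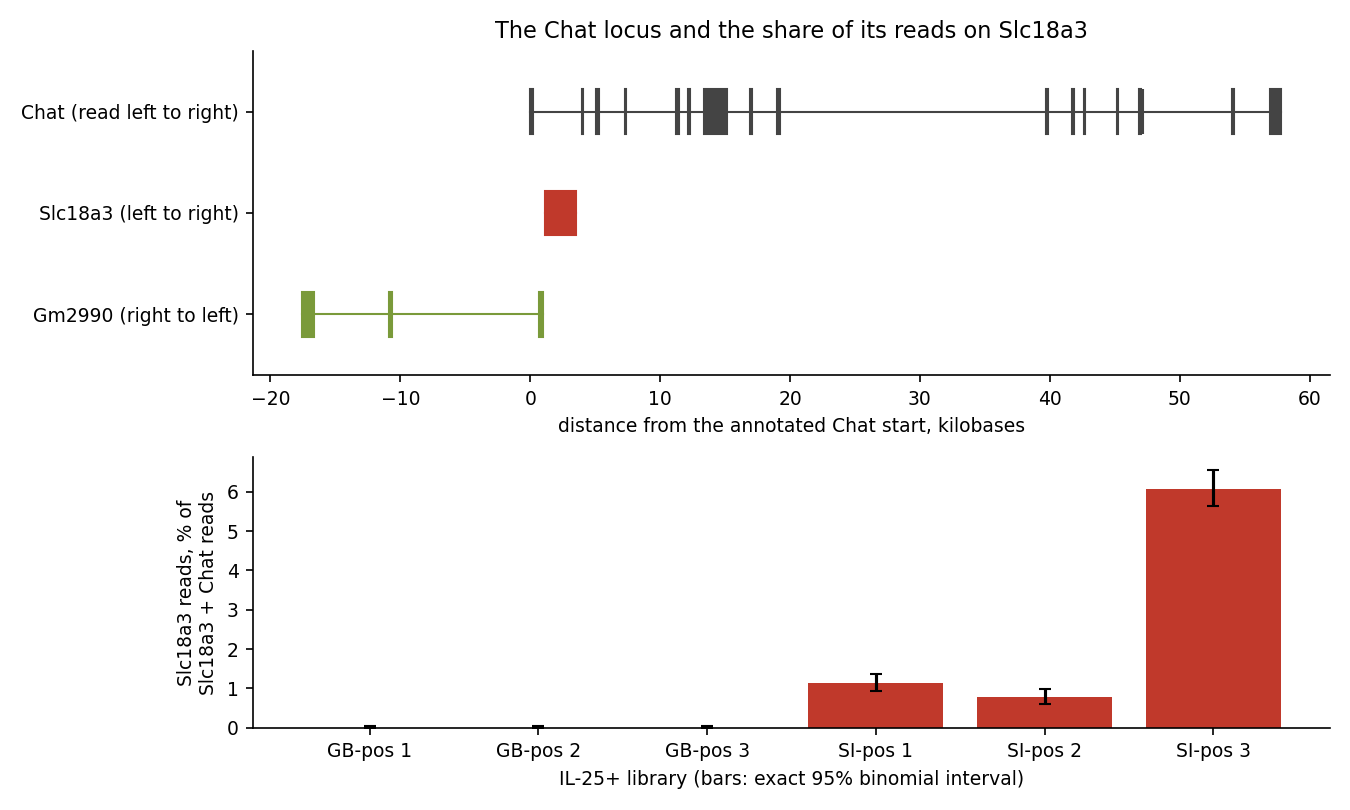
Top, exons (boxes) of Chat, Slc18a3 and the antisense gene Gm2990 by distance in kilobases from the annotated Chat start. Bottom, Slc18a3 reads as a percent of Slc18a3 plus Chat reads in each IL-25+ library, with exact 95% binomial intervals: 0 in the 3 gallbladder libraries, and 1.14, 0.783 and 6.08% in SI-pos 1 to 3.

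Slc5a7 (ENSMUSG00000023945, chromosome 17, 54273590 to 54299034, minus strand), which brings choline back into cholinergic nerve endings, had 1 count in all 12 libraries together, in SI-pos 3. It could not be tested. Each group thus lay under the limit of 3 counts, which is 0.0305 CPM over GB-pos, 0.0221 over GB-neg, 0.0394 over SI-pos and 0.0291 over SI-neg. Markers of enteric neurons and glia were not absent from these libraries: the 12 genes of that list summed to 115 to 180 CPM in GB-pos, 32.1 to 46 in GB-neg, 19.3 to 24.7 in SI-pos and 62.2 to 141 in SI-neg. Of its defining genes, Vip had 0 counts in all groups, and Nos1 had 0 in GB-pos, GB-neg and SI-neg. The part of such cells in the genes described here was not tested.

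The esterase and its tail went in opposite directions. Ache (ENSMUSG00000023328, chromosome 5, 137287519 to 137294466, plus strand) had 30, 2 and 8 counts in GB-pos, against 593, 378 and 145 in GB-neg. It had 89, 26 and 33 counts in SI-pos, against 471, 523 and 263 in SI-neg. Groups did not overlap in either tissue. In CPM, Ache averaged 0.387 ± 0.425 in GB-pos and 8.07 ± 3.24 in GB-neg, and 1.91 ± 1.26 in SI-pos and 12.7 ± 5.5 in SI-neg. Ache fell by 4.36 ± 0.90 in gallbladder IL-25+ cells (adjusted p = 0.0029), called under each of 21 alternatives. Taken over the counts of each group divided by the summed library sizes, the ratio was 20.2 times lower and became 52.6 times lower without GB-pos 1. In small intestine IL-25+ cells Ache fell by 2.73 ± 0.82 (adjusted p = 0.0261), a call lost without SI-pos 2, SI-pos 3, SI-neg 1 or SI-neg 2 (adjusted p = 0.0987, 0.0977, 0.0648 and 0.0783), and the same kind of ratio, 6.27 times lower, became 10.2 without SI-pos 1. The 2 tissues' changes were not shown to differ (-1.63 ± 1.11, adjusted p = 0.428). Between tissues, Ache was lower in GB-pos than in SI-pos by an estimate that was not called (-2.28 ± 0.83, adjusted p = 0.0636; 0.0249 by DESeq2 and 0.013 without GB-pos 1), and GB-neg and SI-neg overlapped (-0.65 ± 0.77, adjusted p = 0.591). Ache shares 98 exon bases with Gm42456 on the opposite strand, which reads without strand cannot separate.

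Colq (ENSMUSG00000057606, chromosome 14, 31523082 to 31591343, minus strand) had 38, 0 and 14 counts in GB-pos, against 1, 0 and 0 in GB-neg. It had 335, 868 and 573 counts in SI-pos, against 0 in each SI-neg library. GB-pos 2 had no count, so the gallbladder groups overlapped. All 3 SI-pos libraries, at 12.6, 34.8 and 23.2 CPM, lay above every other library. In the small intestine the increase was at least 802-fold by group counts (adjusted p = 0.000388 by edgeR). The lowest such bound with 1 library left out was 495-fold. Colq passed the filter on low counts through SI-pos, which fixed the direction of its changes against that group. In gallbladder the ratio was 71.7 (95% counting interval 12.3 to 2887; adjusted p = 0.0156). It rested on GB-pos 1: without that library the ratio was 29.7 and the adjusted p 0.0577, and with GB-neg 1 left out only a bound of 11.4 could be given. With limma-voom the adjusted p was 0.223. GB-pos was lower than SI-pos by 5.55 ± 1.18 on the log2 scale (adjusted p = 0.00583), at 0.493 ± 0.561 against 23.6 ± 11.1 CPM. The ratio of group counts per summed library size was 44.2 times lower, and 107 times without GB-pos 1. The difference between the tissues' gate effects was not called (-7.08 ± 3.43, adjusted p = 0.245). Per kilobase of exon, SI-pos held 6.2 ± 2.92 CPM of Colq against 0.414 ± 0.273 CPM of Ache, and 82 ± 6.85 CPM of Chat. In SI-neg the order was the other way, with 2.75 ± 1.19 CPM per kilobase of Ache and no Colq count. Colq shares 199 exon bases with Gm49387 on the same strand, so reads there are uncertain.

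**Figure D3:**
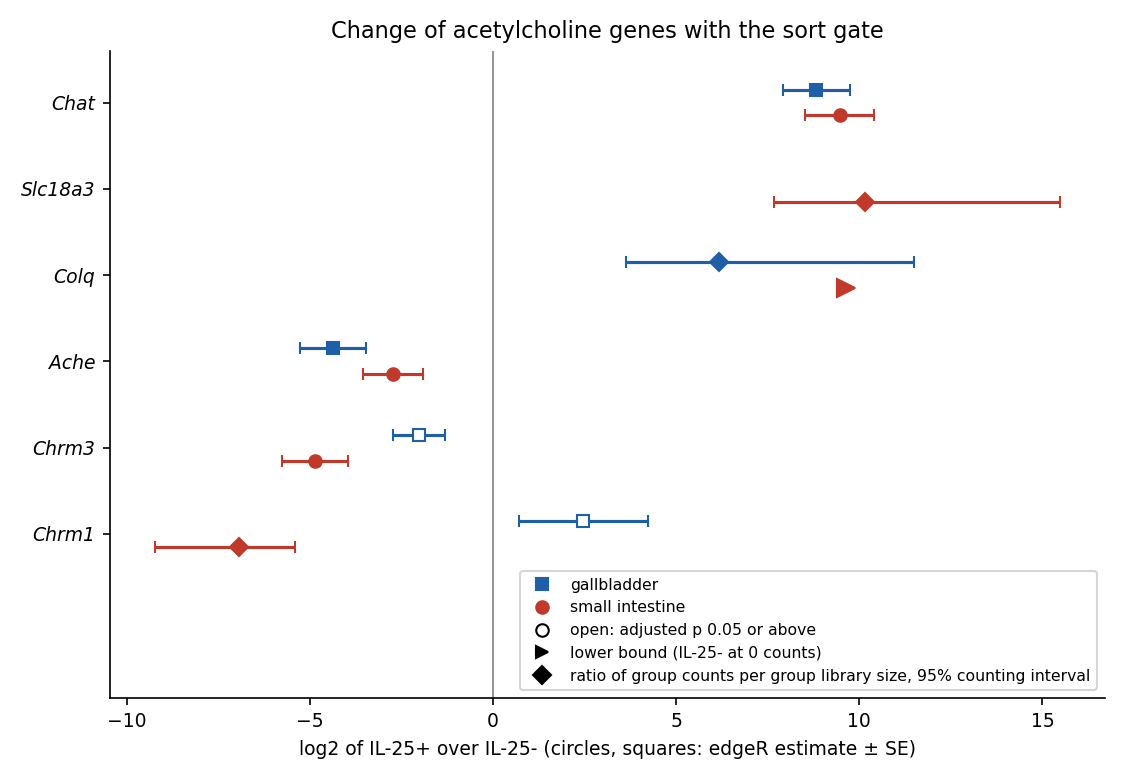
Change between the sort gates for the 6 tested genes, as log2 of IL-25+ over IL-25- (x axis), with gallbladder above small intestine for each gene. Squares and circles are edgeR estimates ± SE, diamonds ratios with 95% counting intervals and the triangle the lower bound of 802-fold for Colq; open symbols were not called, and Slc18a3 has no gallbladder value.

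Of the receptors, Chrm3 (ENSMUSG00000046159, chromosome 13, 9875486 to 10360847, minus strand), known for smooth muscle contraction and gland secretion, was higher in gallbladder than in small intestine in both gates, and lower in small intestine IL-25+ than IL-25- cells. It had 445, 454 and 204 counts in GB-pos, against 2806, 1249 and 2047 in GB-neg. It had 9, 0 and 1 counts in SI-pos, against 182, 144 and 51 in SI-neg. Chrm3 averaged 11.8 ± 5.77 CPM in GB-pos and 47.6 ± 16.4 CPM in GB-neg, and 0.127 ± 0.185 CPM in SI-pos and 3.83 ± 2.22 CPM in SI-neg. In the order GB-neg, GB-pos, SI-neg, SI-pos no neighbouring groups overlapped, although GB-pos 3 at 5.49 CPM lay close to SI-neg 1 at 5.4 CPM. In the small intestine Chrm3 fell by 4.85 ± 0.90 in IL-25+ cells (adjusted p = 0.00149), and by 7.33 without SI-pos 1, which held 9 of the 10 counts of its group. In gallbladder the estimate was -2.02 ± 0.71 and was not called (adjusted p = 0.0512); it passed in 8 of 21 alternatives, among them DESeq2 (0.014), limma-voom (0.00418), the stricter filter (0.0465), the fit of the gallbladder groups alone (0.0138) and the fits without SI-pos 1, SI-pos 2 or SI-neg 3 (0.0239, 0.0348 and 0.0355), and its highest adjusted p was 0.158.

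The difference between tissues was 6.46 ± 0.94 for GB-pos against SI-pos (adjusted p = 0.000329), or 8.95 without SI-pos 1, and 3.63 ± 0.76 for GB-neg against SI-neg (adjusted p = 0.00389). Both calls held under each of 21 alternatives. The gate effects of the 2 tissues were not shown to differ (2.83 ± 1.11, adjusted p = 0.137), although DESeq2 (0.0331) and the fit without SI-pos 1 (0.026) called that difference. The 6 smooth muscle and stroma markers summed to 0.0538 to 0.0871 CPM in GB-pos and 0.532 to 1.98 CPM in GB-neg, and to 0.401 to 2.76 CPM in SI-pos and 0 to 4.72 CPM in SI-neg. The part of such cells in the Chrm3 reads was not tested. Per kilobase of exon, Chrm3 was at 7.61 ± 2.62 CPM in GB-neg, where Chrm1 was at 0.00672 ± 0.00772 CPM.

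Chrm1 (ENSMUSG00000032773, chromosome 19, 8663789 to 8683587, plus strand), known mainly from neurons, was read chiefly in SI-neg. It had 0, 23 and 0 counts in GB-pos, 7, 0 and 1 in GB-neg, 2, 0 and 1 in SI-pos, and 184, 273 and 43 in SI-neg. SI-neg libraries, at 5.46, 9.11 and 1.09 CPM, lay above all others, and the 3 other groups overlapped. Chrm1 passed the filter on low counts through SI-neg, which fixed the direction of its changes against that group. SI-pos was 123 times lower than SI-neg (95% counting interval 41.9 to 599; adjusted p = 0.0277), 241 times without SI-pos 1 and 78.8 times without SI-neg 2. That call was lost in 7 of 20 alternatives, among them those without SI-pos 1, 2 or 3 and without SI-neg 1 or 2 (adjusted p up to 0.0953). GB-neg against SI-neg gave -6.67 ± 2.05 (adjusted p = 0.0304), 82.4 times lower and 314 times without GB-neg 1, a call lost in 8 of 20 alternatives, among them those without SI-neg 1 or 2 and without GB-neg 1, 2 or 3. Between the gallbladder gates the estimate was 2.47 ± 1.76 (adjusted p = 0.327), with all GB-pos counts in GB-pos 2. Enteroendocrine markers summed to 20.5 to 377 CPM in SI-pos and to 5274, 11400 and 6092 CPM in SI-neg 1 to 3. Paneth markers summed to 31.3 to 135 CPM in SI-pos and to 931, 5747 and 1269 CPM in SI-neg. Stem cell markers summed to 25.5 to 89.2 CPM in SI-pos and to 1903, 542 and 841 CPM in SI-neg. The part of these cells in the Chrm1 reads was not tested. Chrm1 contains Gm22820, on the opposite strand, which had 0 counts.

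Counted over the 7 genes, of which 6 passed the filter on low counts, gallbladder IL-25+ cells had 2 called higher (Chat and Colq) and 1 called lower (Ache). Of all genes tested in that comparison, 26.8% were called, 12.4% higher and 14.4% lower. Small intestine IL-25+ cells had 3 called higher (Chat, Slc18a3 and Colq) and 3 called lower (Ache, Chrm3 and Chrm1), where 27.2% of all genes were called, 14.5% higher and 12.8% lower. Between the IL-25+ groups, 1 was higher in gallbladder (Chrm3) and 2 lower (Slc18a3 and Colq), with 23.7% of all genes called, 10.5% higher and 13.1% lower. Between the IL-25- groups, 1 was higher in gallbladder (Chrm3) and 1 lower (Chrm1), with 24.6% called, 13% higher and 11.7% lower. The gate effect differed between tissues for 2, Slc18a3 lower and Chrm1 higher in gallbladder, with 9.23% called, 3.63% higher and 5.6% lower. Without GB-neg 1 the adjusted p of Slc18a3 was 1, and without GB-pos 2 that of Chrm1 was 0.95; the calls were lost in 5 and 14 of 19 alternatives. Slc18a3, Colq and Chrm1 passed the filter through 1 group each, which fixed the direction of their change there. Several of these comparisons share a group of libraries.

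The other receptors were sparse. Of 3 further muscarinic genes none could be tested: Chrm2 and Chrm5 had 0 counts in all 12 libraries, and Chrm4 had 0 counts in GB-pos and 14 in GB-neg, and 4, 0 and 7 counts in SI-pos against 79, 4 and 221 in SI-neg. Of 16 nicotinic subunit genes 5 passed the filter. In gallbladder IL-25+ against IL-25- cells 0 of the 5 were called by edgeR, and 2 had an unadjusted p under 0.05. DESeq2 called 1, Chrnb4 (adjusted p = 0.0201), and limma-voom called 1, Chrna4 (0.00929). In small intestine IL-25+ cells 1 was higher and 1 lower, where 27.2% of all genes were called. Chrna9, a subunit best known from the inner ear, had 25, 21 and 45 counts in SI-pos against 0 in each SI-neg library, at least 41.1-fold higher (adjusted p = 0.0178). That call was lost without SI-neg 3 (0.0546), without GB-neg 1 and SI-neg 3 (0.0614), and when SI-neg 1 was left out (0.0518). It was also lost with the replicate block nested in tissue (0.0513). Chrnb4, a subunit of ganglionic receptors, had 9, 0 and 0 counts in SI-pos against 217, 272 and 310 in SI-neg (-6.04 ± 1.76, adjusted p = 0.0259). Chrnb4 passed the filter through SI-neg, which fixed the direction of this change. The call was lost in 6 of 21 alternatives, all of them fits with a small intestine library left out.

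Between the IL-25- groups 3 of the 5 nicotinic subunits were called, where 24.6% of all genes were called. Chrna4 passed the filter through GB-neg and Chrnb4 through SI-neg, which fixed the direction of their changes. Chrna4 had 112, 68 and 380 counts in GB-neg, against 0, 0 and 2 in SI-neg, a ratio of 212 (95% counting interval 58.5 to 1758; adjusted p = 0.0277). Chrna9 had 25, 10 and 49 counts in GB-neg, against 0 in SI-neg, at least 21.2-fold higher (adjusted p = 0.0266). Chrnb4 was lower in GB-neg, with 35 counts over the group, than in SI-neg (-5.01 ± 1.65, adjusted p = 0.047). Each of these 3 calls was lost without SI-neg 1, 2 or 3, without GB-neg 3 and without GB-neg 1 and SI-neg 3. That of Chrnb4 was also lost without GB-neg 1 or 2, and that of Chrna9 with the replicate block nested in tissue (adjusted p = 0.0688). Chrnb1 lay between 1.19 and 14.4 CPM and Chrnb2 between 0.377 and 7.57 CPM in the 12 libraries, and edgeR called neither in any comparison.

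**Figure D4:**
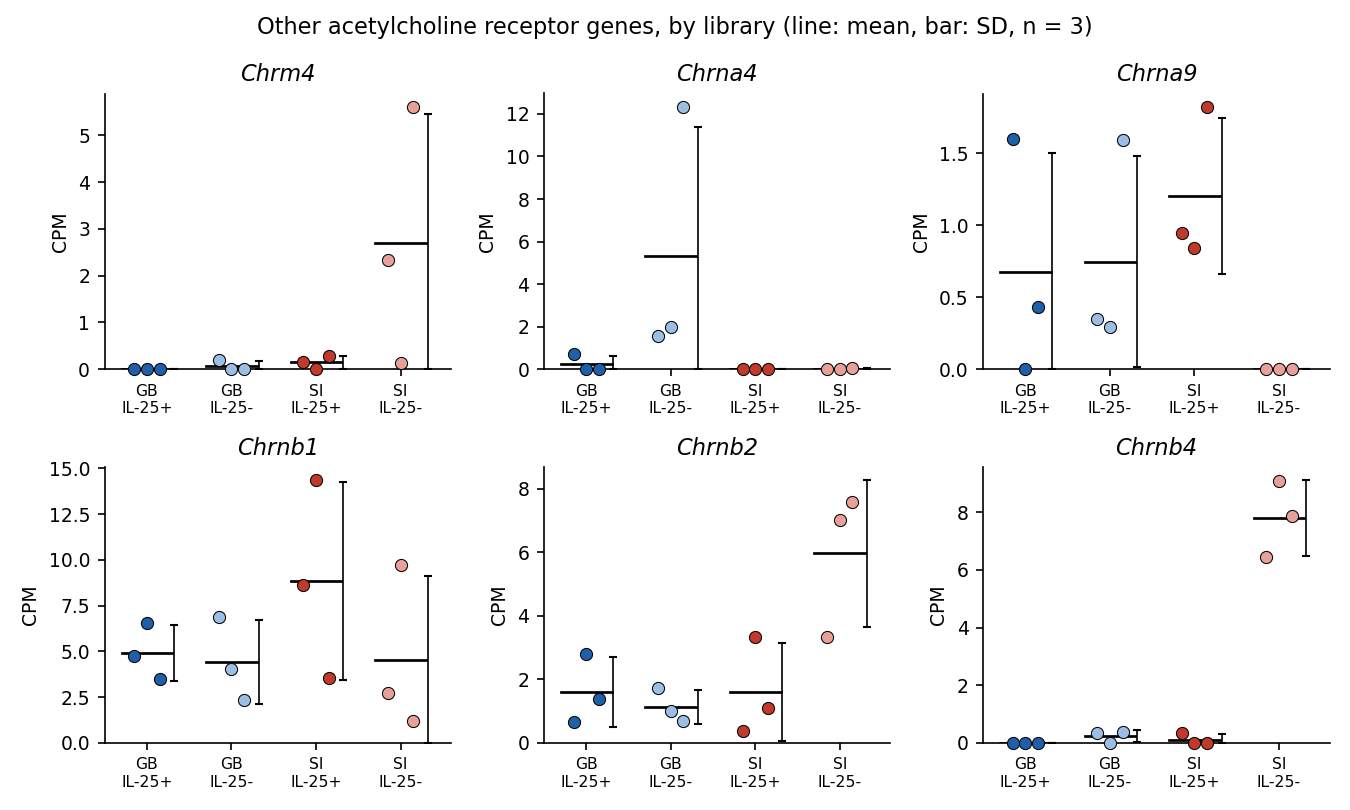
Level in CPM (y axis, own scale in each panel) of 6 other acetylcholine receptor genes by group (x axis), with circles for libraries, lines for means and bars for SD (n = 3). Chrnb4 and Chrm4 are highest in SI-neg, Chrna4 in GB-neg, and Chrna9 has no count in SI-neg.

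Of the 89 other genes of the pathway, chosen for choline and acetyl-CoA supply, breakdown, release, receptors and their coupling, 66 were tested. In gallbladder IL-25+ cells 14 were called higher and 19 lower, and in small intestine IL-25+ cells 19 were called higher and 24 lower, beside the 26.8% and 27.2% of all genes. Their median change was -0.21 in gallbladder and -0.68 in small intestine, beside -0.15 and -0.07 over all genes.

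Choline and phosphatidylcholine genes (20 tested) had 8 called higher and 3 lower in gallbladder IL-25+ cells, and 10 higher and 6 lower in small intestine IL-25+ cells, where 12.4% and 14.4% of all genes in gallbladder and 14.5% and 12.8% in small intestine were called higher and lower. Chdh, which oxidises choline and so removes it, averaged 614 ± 69.3 CPM in GB-pos and 91.2 ± 7.56 CPM in GB-neg, and 1768 ± 229 CPM in SI-pos and 288 ± 21.2 CPM in SI-neg. It rose by 2.75 ± 0.17 in gallbladder IL-25+ cells (adjusted p = 2.5e-07) and by 2.62 ± 0.17 in small intestine IL-25+ cells (adjusted p = 3.13e-07). Genes that free choline or glycerophosphocholine from phosphatidylcholine differed among themselves. Pld2, a phospholipase D, was higher in IL-25+ cells by 2.72 in gallbladder and 3.02 in small intestine, Pnpla6 by 2.65 and 2.22, and Gpcpd1, which splits glycerophosphocholine, by 1.84 and 2.76. Pld1, also a phospholipase D, was called in neither gallbladder (-0.41 ± 0.22, adjusted p = 0.184) nor small intestine (-0.25 ± 0.22, adjusted p = 0.422). Of genes that put choline into phosphatidylcholine, Chka, a choline kinase, fell by 2.36 and 1.58, and Chpt1, the last step of that path, fell by 3.56 and 2.09. Chkb, the other choline kinase, rose by 1.03 ± 0.21 in small intestine (adjusted p = 0.00332) and was not called in gallbladder (0.47 ± 0.21, adjusted p = 0.124). The adjusted p-values of the 10 changes of Pld2, Pnpla6, Gpcpd1, Chka and Chpt1 ran from 5.37e-06 to 0.00154. Chdh and these 5 genes kept their gate calls under each of 21 alternatives.

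Of the choline transporter-like genes, Slc44a2 and Slc44a4 changed in opposite ways in the 2 tissues. Slc44a2 had 90.4 ± 15.1 CPM in GB-pos against 24.5 ± 3.99 in GB-neg, and 4.75 ± 0.288 in SI-pos against 18.7 ± 5.98 in SI-neg. It rose by 1.88 ± 0.28 in gallbladder IL-25+ cells (adjusted p = 0.000314) and fell by 1.97 ± 0.29 in small intestine IL-25+ cells (adjusted p = 0.000252). Slc44a4 did the reverse, with 53.9 ± 3.1 CPM in GB-pos against 103 ± 20.5 in GB-neg and 166 ± 27.9 in SI-pos against 49.3 ± 5.13 in SI-neg. It fell by 0.94 ± 0.20 in gallbladder (adjusted p = 0.00349) and rose by 1.75 ± 0.20 in small intestine (adjusted p = 3.74e-05). The tissues' gate effects differed by 3.86 ± 0.40 for Slc44a2 and by -2.69 ± 0.28 for Slc44a4 (adjusted p = 0.000112 for each), and both differences held under each of 20 alternatives. Slc44a1, which also carries choline, fell by 1.47 ± 0.26 in small intestine IL-25+ cells (adjusted p = 0.000935) and had 147 ± 42.9 CPM in GB-pos against 142 ± 15.6 in GB-neg.

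Of 7 genes around acetyl-CoA, 1 was called higher and 2 lower in gallbladder IL-25+ cells, and 2 higher and 2 lower in small intestine IL-25+ cells, beside 26.8% and 27.2% of all genes called. Acly, which makes cytosolic acetyl-CoA from citrate, averaged 620 ± 59.9 CPM in GB-pos and 162 ± 5.63 CPM in GB-neg, a rise of 1.94 ± 0.16 (adjusted p = 2.9e-06). In the small intestine it averaged 235 ± 22.8 CPM in SI-pos and 148 ± 19.8 CPM in SI-neg, a rise of 0.67 ± 0.16 (adjusted p = 0.0075) that missed the threshold without GB-neg 1 and SI-neg 3 (adjusted p = 0.0504). Pdha1, a subunit of pyruvate dehydrogenase, fell by 1.74 ± 0.31 in gallbladder and by 1.28 ± 0.31 in small intestine (adjusted p = 0.00111 and 0.00786).

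Of the other esterases, Bche, which makes butyrylcholinesterase, averaged 16.6 ± 1.67 CPM in GB-pos and 167 ± 66.1 CPM in GB-neg, and 42 ± 21.3 CPM in SI-pos and 148 ± 40.6 CPM in SI-neg. It fell by 3.33 ± 0.38 in gallbladder (adjusted p = 3.32e-05) and by 1.82 ± 0.36 in small intestine (adjusted p = 0.00216). Of the 4 esterase genes of the list that were tested, 3 were lower in gallbladder IL-25+ cells and 2 in small intestine IL-25+ cells, and none was higher, beside 14.4% and 12.8% of all genes called lower. Among those lower in gallbladder, Ces2e had 784, 32 and 9 counts in GB-neg 1 to 3, and Ces2a had 201, 12 and 9. The Ces2e call was kept in 11 of 21 alternatives and was lost without GB-neg 1 (-2.1, adjusted p = 0.0647). The Ces2a call was lost with limma-voom (adjusted p = 0.0803). Of 5 tested organic cation transporters and other candidates for release without vesicles, none was higher and 1 was lower in each tissue, a share near those 14.4% and 12.8%. That gene, Slc22a4, fell by 4.58 ± 0.47 in gallbladder and by 2.21 ± 0.43 in small intestine (adjusted p = 1.46e-05 and 0.002).

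**Figure D5:**
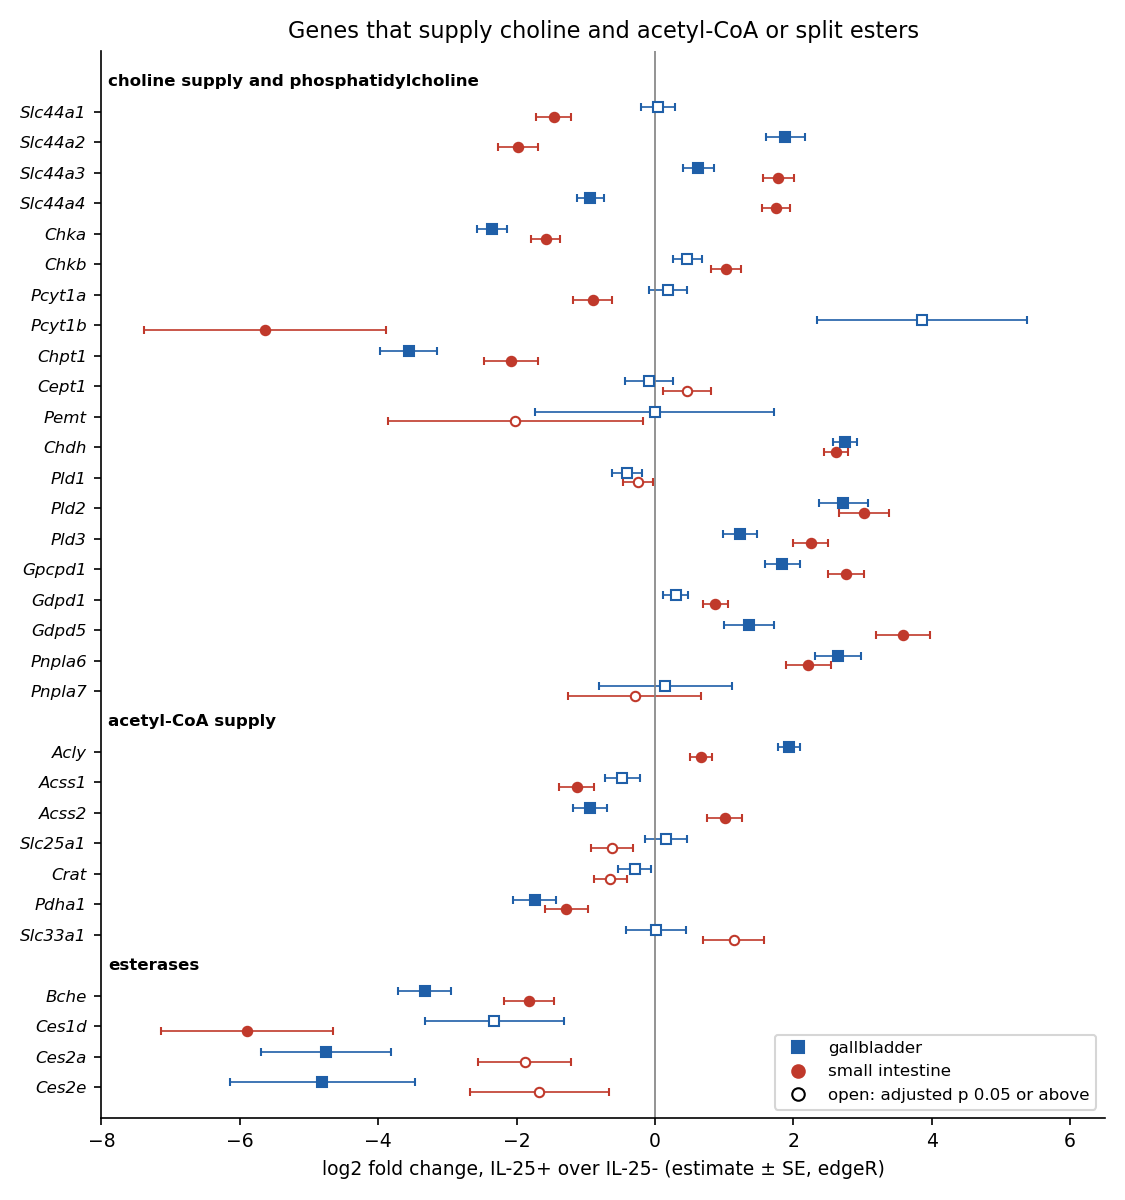
Change between the sort gates for genes of choline supply, acetyl-CoA supply and ester hydrolysis, as edgeR log2 fold change ± SE of IL-25+ over IL-25- (x axis), with gallbladder squares above small intestine circles. Filled symbols were called; Slc44a2 and Slc44a4 lie on opposite sides of 0 in the 2 tissues, and Chdh, Pld2, Gpcpd1 and Pnpla6 lie to the right in both.

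Among 14 genes of G protein coupling downstream of muscarinic and other receptors, 4 were higher and 6 lower in gallbladder IL-25+ cells, and 5 higher and 7 lower in small intestine IL-25+ cells, beside 26.8% and 27.2% of all genes called. Gnai2, an inhibitory G protein subunit, rose by 2.53 ± 0.23 in gallbladder and 3.07 ± 0.23 in small intestine, and Itpr2, a calcium release channel, by 5.05 ± 0.37 in gallbladder and 3.64 ± 0.35 in small intestine. Plcb3, a phospholipase that Gq activates, fell by 1.45 ± 0.20 in gallbladder and 1.71 ± 0.20 in small intestine. The adjusted p-values of these 6 changes ran from 8.93e-07 to 0.00016. Plcb2, another phospholipase of that family, rose by 6.55 ± 1.10 in gallbladder and 6.65 ± 1.10 in small intestine (adjusted p = 0.00176 and 0.00166). Gnai1 and Itpr1 moved opposite ways in the tissues. Gnai1 fell by 2.15 ± 0.46 in gallbladder IL-25+ cells and rose by 3.04 ± 0.47 in small intestine IL-25+ cells (difference -5.19 ± 0.66, adjusted p = 0.000413). Itpr1 rose by 1.77 ± 0.38 in gallbladder and fell by 3.30 ± 0.41 in small intestine (difference 5.06 ± 0.56, adjusted p = 0.000145). These genes serve many receptors, not acetylcholine receptors alone.

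Between the IL-25+ groups of the 2 tissues, 15 of the 66 genes were higher and 18 lower in gallbladder, where 23.7% of all genes were called. Nicotinic chaperones and Ly6-type modulators, 11 tested, had 5 higher and 1 lower. Lynx1, which binds nicotinic receptors in the brain, was at 54.1 ± 9.92 CPM in GB-pos and 0.523 ± 0.42 CPM in SI-pos (difference 6.68 ± 0.79, adjusted p = 0.000116). Lypd6 was higher by 4.99 ± 0.76 and Ly6e by 2.55 ± 0.25 (adjusted p = 0.000441 and 1.55e-05). Between the IL-25- groups Lynx1, Lypd6 and Ly6e were also higher in gallbladder, by 6.0, 3.77 and 3.21 (adjusted p = 0.00016, 0.00104 and 4.13e-06). In GB-neg they averaged 150, 75.8 and 880 CPM, against 54.1, 6.34 and 254 CPM in GB-pos. Within gallbladder, Lypd6 and Ly6e were called lower in IL-25+ cells (-3.58 and -1.79, adjusted p = 0.00115 and 0.000129), and Lynx1 was not called (-1.47, adjusted p = 0.0941). Tmem35a, a chaperone of nicotinic receptors, had 659, 207 and 256 counts in GB-pos, against 0, 0 and 1 in SI-pos (ratio 867, 95% counting interval 155 to 34259; adjusted p = 0.00376). Between the IL-25- groups the estimate for Tmem35a was 3.9 and was not called (adjusted p = 0.0587).

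Over the 12 libraries, the genes whose log2 CPM followed Chat most closely were Gm4952 (Pearson r = 0.999), the tuft cell channel Trpm5 (0.997), the transcription factor Gfi1b (0.995), Pik3cg (0.994) and Bmx (0.994). For Colq they were Kcnmb4 (0.976), Mrpl54 (0.975), Spint2 (0.974), Mprip (0.971) and Gm26976 (0.969). Ache was followed by Rflnb (0.948), Psd4 (0.947), Ephx2 (0.94), Rrbp1 (0.939) and Arhgap42 (0.938). Among those that followed Chrm3 were Maged1 and Rasgrf1 (0.978 each), Slc25a23 (0.972) and Egr1 (0.97). The libraries fall into 4 groups, so these values describe likeness over the groups and carry no test.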

How the data were processed

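Per the labels' protocols and design text, mRNA of sorted cells was amplified with a NuGen kit, made into Nextera XT libraries and sequenced on an Illumina HiSeq. The authors deposited raw counts per Ensembl gene, not normalized. Per the submitters' processing notes, STAR 2.7.2b, DESeq2 1.26 and GRCm38 are listed; the counter, its strand setting and the annotation release are not given in the sources used here. Of 43432 genes, 42548 were matched by ID to GENCODE M21. The table's 11 columns that match no sample were not used. Replicates were checked to be distinct (chi-square per degree of freedom at least 45.3).

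Counts were analysed in R 4.3.3 with edgeR 4.0.16: filterByExpr (minimum count 10), TMM, group means over all 12 libraries, robust quasi-likelihood F tests, two-sided, Benjamini-Hochberg threshold 0.05. SE is the log2 fold change divided by the square root of F. Where a group had no count, the fold is a lower bound set by 3 counts in that whole group. Where it had 1 to 3, the ratio is given with its exact binomial 95% interval. Bounds and intervals cover counting error only, since reads had no molecular identifiers. Level per kilobase uses the union of GENCODE exons.

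Each fit was repeated without the filter and with 5 CPM required in 3 libraries. Other repeats used DESeq2 1.42.0, limma 3.58.1 (voom with quality weights) or RLE size factors, took only the groups compared, or added a replicate block, plain or nested in tissue. Libraries were left out in turn, as was the pair GB-neg 1 and SI-neg 3. The fits were tested on simulated counts. The named genes are the 7, up to 8 called pathway genes per direction with the lowest adjusted p in the gate comparisons and between the IL-25+ groups, receptor genes called in any comparison, and the 5 genes most like each of 5 members by Pearson r of log2 CPM (prior count 2). Some genes of these lists are not reported here. Receptor genes outside that rule (Chrm2, Chrm4, Chrm5, Chrnb1 and Chrnb2), Gm2990, Plcb2 and Ces2e were named after their values were seen. The genes, lists and tests were chosen with earlier results of these data known. Promoters were taken from a RefSeq table, which matched 5 of the 7 genes. Python 3.11.15 with scipy 1.17.1, numpy 2.4.6 and pandas 2.3.3 wrote the tables, and matplotlib 3.10.9 drew the plots.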

Additional observations from a re-analysis of the deposited data

Results flagged for a closer look

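In 2 of the 7 genes the effect of the sort gate differed between tissues by the interaction term of the edgeR model (6 genes tested here, adjusted over 16636 genes). Of all genes tested, 9.23% were called for this term, 3.63% higher and 5.6% lower. Slc18a3 passed the filter on low counts through SI-pos and Chrm1 through SI-neg, which set the direction of each difference. For Slc18a3 the fitted difference, gallbladder minus small intestine, was -12.33 ± 2.67 on the log2 scale (adjusted p = 0.0147); this value depends on the prior count, since Slc18a3 had 0 counts in GB-pos and 3 in GB-neg, against 846 in SI-pos and 1 in SI-neg. Without GB-neg 1, which holds those 3 counts, the estimate was -9.67 (adjusted p = 1), and without SI-pos 3 it was -10.61 (adjusted p = 0.0547). For Chrm1 the difference was 9.40 ± 2.73 (adjusted p = 0.048), with all 23 GB-pos counts in GB-pos 2. Without GB-pos 2 it was 3.07 (adjusted p = 0.95), and the call was lost in 14 of 19 alternatives.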

How the results depend on the processing

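Over 60 genes and 5 comparisons, 6192 alternative values were computed. Of these, 5763 kept their side of the threshold, 5651 of them with the same direction and 112 with another direction but called in neither fit; 296 lost a call and 132 gained one in the same direction. In 1 a called value had the other direction, the tissue difference in the gate effect of Chat, -0.63 (adjusted p = 0.78), which was 2.26 (adjusted p = 0.00578) without GB-neg 1 and SI-neg 3; without GB-neg 1 the Chat counts of GB-neg are 4 and 2. Genes called between the small intestine gates were 4529, and 6832 with limma-voom. Genes whose gate effect differed between tissues were 1536 (604 higher and 932 lower), and 2364 (1221 and 1143) with DESeq2, while RLE size factors split them 779 and 743. RLE moved the median log2 change of all genes by more than 0.1, to -0.197 in small intestine (-0.073 by TMM), to 0.021 between the IL-25+ groups (-0.087) and to 0.058 for the interaction (-0.107), and kept each call of the 7 genes. Of the 7 genes, 2 were called between the IL-25- groups, and 1 under the stricter filter. For the interaction 2 were called, 4 with DESeq2, 0 with limma-voom, 0 with the stricter filter, which removes low genes, and 1 without GB-neg 1 and SI-neg 3. Leaving out 1 library gave 1 to 2 members between the IL-25- groups, 0 to 2 for the interaction, and 7 to 16 of the other pathway genes for the interaction (12 with all libraries).

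Replicate numbers were checked for pairing. Deviations of same-numbered libraries correlated at 0.094, 0.019 and 0.162 between the gallbladder gates and at 0.026, -0.002 and -0.028 between the small intestine gates. Those of different-numbered libraries correlated at -0.179 to 0.096 in gallbladder and at -0.062 to 0.062 in small intestine. With 3 libraries a group, these values cannot settle whether same-numbered libraries were paired. With the replicate block, 4074 genes were called in gallbladder (4456 without it) and 4254 in small intestine (4529), with 1 of the 7 genes between the IL-25- groups and 1 for the interaction; nested in tissue, the block gave 1 and 0. The causes of these moves were not tested. Slc18a3, Slc5a7, Colq and Chrm1 had 0 to 3 counts in 1 or more groups, where depth limits what a test can show.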
